A study of Homo sapiens with 6 samples.

Results

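The genes described here encode the replacement histone variants and a replacement linker histone: H1FX (the linker histone H1X), H2AFZ and H2AFV (both forms of H2A.Z), H2AFX, H2AFY and H2AFY2 (both macroH2A proteins), H2AFJ, and H3F3A and H3F3B (both encoding H3.3). They were chosen by symbol, as 9 of the 55765 gene symbols counted, and all 9 passed the filter on low counts that left 16835 genes for testing. The cells were C4-2, an established human prostate cancer line that is a castration-resistant (CRPC) subline of LNCaP. The culture medium held 5% FBS, and cells received for 72 h either 1 nM R1881, a synthetic androgen receptor agonist given here at a supraphysiological androgen level (SAL), or the solvent control DMSO. There were 3 DMSO and 3 SAL libraries, with replicates numbered 1 to 3 in each group. Both groups are 1 cell line, so the spread between libraries is that between replicates of the line.

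Most histone protein is made during S phase from the replication-dependent HIST gene clusters, whose mRNAs normally end in a stem-loop in place of a poly(A) tail. Replacement histones are made from single genes outside the large clusters throughout the cell cycle, mostly as polyadenylated mRNA, and dedicated chaperones place them in chromatin when nucleosomes are rebuilt without DNA synthesis. H2A.Z is known for its place at promoters, H2A.X for its phosphorylation at DNA breaks, macroH2A for a large additional domain, and H3.3 for its place at active genes and at telomeres. Libraries were made from total RNA, so both kinds of mRNA could be counted.

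The stem-loop of the HIST mRNAs was looked for in the canonical transcripts, as 16 bases made of a stem of 6 bases on either side of a loop of 4 bases. It was found in 55 of 56 HIST transcripts with counts (98.2%) and in 1 of the 9 replacement transcripts, that of H2AFX. No canonical transcript was matched for the rest of the 62 HIST symbols with counts, HIST1H2BC and HIST1H4B among them. The sequences below are shown because they set H2AFX apart from the other replacement genes, with the stem in capitals and the loop in lower case.
H2AFX: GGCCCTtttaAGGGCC
HIST1H2AB: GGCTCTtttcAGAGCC
HIST1H4C: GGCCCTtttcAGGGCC
HIST2H2BE: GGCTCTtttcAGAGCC
The H2AFX stem-loop lies on the minus strand at chr11:118965608-118965623 in GRCh37, 1024 bases before the annotated end of the transcript. In HIST1H2AB and HIST1H4C it ends 6 and 5 bases before the transcript end. HIST2H2BE, like H2AFX, has a long annotated transcript, with 1729 bases after the stem-loop. H2AFX is known as a gene with both a short stem-loop mRNA and a longer polyadenylated mRNA, and the deposited counts add the reads of both.

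Promoter windows, the 250 bases before the annotated RefSeq start in GRCh38.p14, were matched for all 9 genes. The motif CCAAT, searched on both strands (as CCAAT or ATTGG), occurs at least once in 32.0% and at least 2 times in 9.53% of 35116 windows of this length. It was found 3 times in the window of H2AFZ, 4 times in H2AFV, 4 times in H2AFX, 3 times in H2AFJ and 4 times in H3F3B. H1FX and H2AFY2 held none, the 2 windows of H2AFY held 0 and 2, and the 4 windows of H3F3A held 0 or 1. The windows of the H2A.Z pair, of H2AFX and of H1FX are shown to let the motif-rich windows be set beside one without it, with each match in capitals.
H2AFZ: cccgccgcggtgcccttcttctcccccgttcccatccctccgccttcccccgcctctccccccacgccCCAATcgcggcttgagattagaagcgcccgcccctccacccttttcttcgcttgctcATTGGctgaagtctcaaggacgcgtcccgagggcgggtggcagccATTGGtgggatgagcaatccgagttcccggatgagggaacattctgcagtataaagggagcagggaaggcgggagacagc
H2AFV: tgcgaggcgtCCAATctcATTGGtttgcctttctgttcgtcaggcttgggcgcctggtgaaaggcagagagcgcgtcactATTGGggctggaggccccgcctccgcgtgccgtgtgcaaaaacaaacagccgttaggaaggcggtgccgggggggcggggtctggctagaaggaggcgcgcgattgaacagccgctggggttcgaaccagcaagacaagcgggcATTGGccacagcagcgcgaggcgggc
H2AFX: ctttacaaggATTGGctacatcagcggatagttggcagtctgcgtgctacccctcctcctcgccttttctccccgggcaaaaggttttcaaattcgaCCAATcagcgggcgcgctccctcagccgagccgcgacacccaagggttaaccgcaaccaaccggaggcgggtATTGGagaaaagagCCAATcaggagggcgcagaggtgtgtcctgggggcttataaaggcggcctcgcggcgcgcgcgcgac
H1FX: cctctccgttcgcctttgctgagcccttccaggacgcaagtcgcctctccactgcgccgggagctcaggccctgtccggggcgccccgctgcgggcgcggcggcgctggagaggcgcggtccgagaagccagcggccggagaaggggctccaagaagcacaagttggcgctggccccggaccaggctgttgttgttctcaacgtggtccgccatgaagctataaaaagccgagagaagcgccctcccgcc
They lie on the minus strands at chr4:99950276-99950525, chr7:44848088-44848337, chr11:119095466-119095715 and chr3:129316287-129316536 in GRCh38.p14. Of the genes called below, H2AFZ and H2AFX (lower) held 3 and 4 and H1FX (higher) held 0. The uncalled H2AFV, H2AFJ and H3F3B held 4, 3 and 4, and the windows of the other uncalled genes held 0 to 2. A relation between motif count and change was not tested. Among other motifs searched on both strands, TATAAA (in 10.7% of all windows) was in the windows of H1FX, H2AFZ, H2AFX and H3F3B, TTTGAA (13.3%) was in that of H2AFX, and AGAACA (12.4%) was in that of H1FX. A match describes the letters of the window and is not a bound site.

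Some properties of the libraries touch every value. Between 7864471 and 12532355 reads were counted on genes, of which 11.9% to 27.8% were on rRNA genes and were removed. The remaining reads on the 9 replacement genes made up 0.103% to 0.135% per library. The replicate 1 libraries stood apart: HIST reads were 1.19% in DMSO replicate 1 and 0.563% in SAL replicate 1, and 0.132% to 0.209% in the other 4 libraries. Reads on RN7SK, a small nuclear RNA without a poly(A) tail, were 8.30% and 7.18% in replicate 1 and 0.805% to 4.05% elsewhere. The part of these differences in the results below was not tested. The cells carried reads on 9 of 9 prostate luminal markers. Over all 6 libraries KLK3 had the highest mean among these (799.9 CPM in DMSO and 1809 CPM in SAL, with CPM being each gene's counts scaled to a common library size after TMM), and KRT18 had the lowest (32.2 and 109.7 CPM). The summed level of 5 leukocyte markers was 0.128 to 0.534 CPM, with PTPRC, CD3E and LST1 at 0 in every library. The 5 fibroblast markers summed to 2.43 to 11.1 CPM, with COL1A2 at 0. The 2 endothelial markers counted summed to 0.496 to 3.84 CPM, with CDH5 at 0 and VWF at 4 to 35 counts per library. Another listed endothelial marker, PECAM1, was absent from the counted symbols. A change of a transcript in these bulk samples can come from fewer cells with it or from less of it per cell, which cannot be told apart.

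Of the 9 replacement genes, 1 was up-regulated (H1FX), 2 were down-regulated (H2AFZ and H2AFX) and 6 were not called, with the quasi-likelihood test of edgeR, the replicate number as a block and an adjusted p under 0.05 over all genes tested. Of all genes tested, 11.5% were up-regulated and 9.37% down-regulated. Over the 9 genes the log2 fold change had a median of -0.19, beside -0.0011 over all genes. In 5 of the 9 genes all 3 pairs moved in the same direction, beside 51.2% of all genes, and in 0 of the 9 did the SAL and DMSO levels not overlap, beside 7.51% of all genes. Replicates of 1 group lay far apart, with the highest of all 6 libraries at up to 5.77 times the lowest (H2AFY2). In 8 of 9 genes the 3 replicate numbers stood in the same order in DMSO and in SAL (the exception was H2AFX), as in 66.2% of all genes. Without the block, edgeR called 0 of the 9 genes (0 also at an unadjusted p under 0.05), and of all genes 0.125%. With the block, DESeq2 called H2AFZ and H2AFX but not H1FX.

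**Figure D1:**
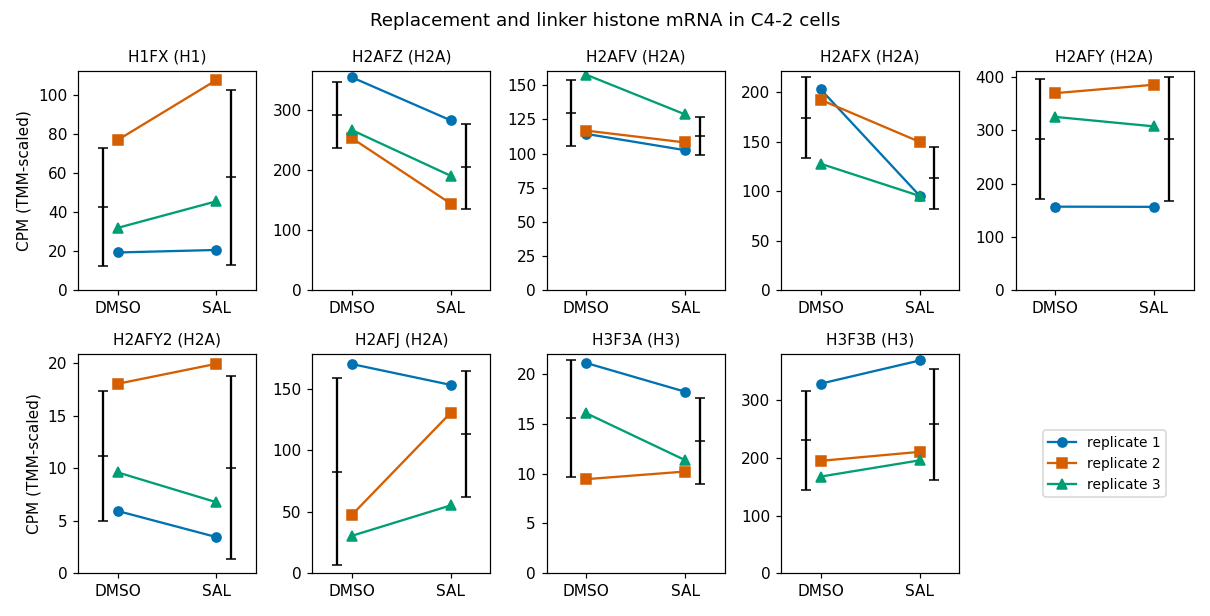
Level of each replacement and linker histone gene in TMM-scaled CPM (y axis, from 0, a scale of its own in each panel) in DMSO and SAL, with lines joining the libraries of 1 replicate number and black bars for the mean ± SD of 3 libraries. All 3 lines fall for H2AFZ, from 354 to 283 CPM in replicate 1, and for H2AFX, those of H1FX rise in replicates 2 and 3, while the replicates of 1 group lie far apart.

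Linker histones bind the DNA between nucleosomes and compact the chromatin fibre. H1FX encodes H1X, a linker histone that is only distantly related to the other H1 proteins. Its single exon lies on chromosome 3 (129033614 to 129035129, minus strand, GRCh37). It was at 19.3, 77.0 and 31.9 CPM in DMSO replicates 1, 2 and 3 and at 20.6, 108 and 45.6 CPM in the SAL replicates of the same numbers, an order kept for the genes that follow. Replicates 2 and 3 rose by 0.48 and 0.51 on the log2 scale and replicate 1 changed by 0.09. The log2 fold change was 0.39 (SE 0.11, adjusted p = 0.0246). The call was lost with DESeq2 (0.39, adjusted p = 0.105) and after values were corrected for GC content and length (0.22, adjusted p = 0.111). It was lost too without replicate 2 (adjusted p = 0.196) and without replicate 3 (adjusted p = 0.358). An antisense gene, H1FX-AS1, shares 345 bases with it and had 16 to 30 counts, and the counting did not use strand.

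The H2A.Z pair differs in only a few amino acids and is exchanged into nucleosomes by the SRCAP and p400 complexes. H2AFZ (chromosome 4, 100869243 to 100871512, minus strand, GRCh37) was at 354, 253 and 266 CPM in DMSO and at 283, 144 and 190 CPM in SAL. Each SAL library was below its DMSO partner, and only SAL replicate 1 reached the range of the DMSO group. The log2 fold change was -0.54 (SE 0.10, adjusted p = 0.00150), with pairs at -0.33, -0.81 and -0.48, so that the SAL level was 68.8% of the DMSO level. Without replicate 3 the change was -0.57 and no longer passed (adjusted p = 0.0749).

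H2AFV, which encodes the second H2A.Z, lies on chromosome 7 (44866390 to 44887686, minus strand, GRCh37). Its levels were 114, 117 and 158 CPM in DMSO and 102, 108 and 129 CPM in SAL. All 3 pairs were below 0, but the log2 fold change of -0.19 (SE 0.09) was not called (adjusted p = 0.180). Whether H2AFZ changed more than H2AFV was tested on the log2 ratio of their CPM in each library. The ratio was lower in SAL by 0.35 on average (change -0.35 ± 0.30, SD, n = 3 pairs), with a two-sided exact permutation p of 0.5, where the smallest p that 3 against 3 libraries allow is 0.1. Ratios of H2AFY to H2AFY2 and of H3F3B to H3F3A gave exact permutation p-values of 0.6 and 0.4, and adjusted over these 3 comparisons every p was 0.6. The ratio of H2AFZ to H2AFV was lower in SAL in each of the 3 pairs (-0.17, -0.70 and -0.19), and an exact sign-flip permutation test over pairs gave p = 0.25, the smallest that 3 pairs allow. Neither test could reach the threshold with this number of libraries, so a difference within a pair is left undecided.

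H2AFX, a gene of 1 exon on chromosome 11 (118964584 to 118966175, minus strand, GRCh37), was at 203, 192 and 128 CPM in DMSO and at 95.5, 150 and 95.2 CPM in SAL. All 3 SAL libraries were below their partners, and SAL replicate 2 was above DMSO replicate 3. The log2 fold change was -0.62 (SE 0.13, adjusted p = 0.00556) with pairs at -1.08, -0.36 and -0.42. The SAL level was 65.0% of the DMSO level. H2AFX is the gene that carries the stem-loop shown above, and the pair that fell most was replicate 1, in which HIST reads also took the largest share. Whether these are related was not tested. Without replicate 1 the log2 fold change of H2AFX was -0.39 and it was still called.

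H2AFJ encodes H2A.J, an H2A variant known to accumulate in senescent cells. It lies on chromosome 12 (14927339 to 14930936, plus strand, GRCh37) and had levels of 170, 47.6 and 30.6 CPM in DMSO and 153, 131 and 55.3 CPM in SAL. Replicates 2 and 3 were higher in SAL, by 1.45 and 0.85 on the log2 scale, and replicate 1 was not, at -0.15. The log2 fold change of 0.69 was above that of H1FX, but its SE was 0.40 and it was not called (adjusted p = 0.373). Without replicate 1 it was 1.19 (adjusted p = 5.40e-21), from a fit with 1 residual degree of freedom. No other uncalled member was called under any alternative.

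The macroH2A genes were not called. H2AFY (chromosome 5, 134670071 to 134735604, minus strand, GRCh37) was at 157, 369 and 325 CPM in DMSO and at 156, 385 and 307 CPM in SAL. The libraries of 1 number differed little, and the log2 fold change was -0.01 (SE 0.09, adjusted p = 0.966). PITX1-AS1 and a further noncoding gene on the other strand share a summed 4872 bases with the exons of H2AFY, and the counting did not use strand. H2AFY2 (chromosome 10, 71812300 to 71872038, plus strand, GRCh37) had only 27 to 182 counts per library and a log2 fold change of -0.28 (SE 0.21, adjusted p = 0.395). It shares exon sequence with AIFM2 on the other strand, which had 24 to 55 counts.

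The 2 genes of H3.3 encode the same protein. H3F3B (chromosome 17, 73772515 to 73781974, minus strand, GRCh37) was at 328, 194 and 167 CPM in DMSO and at 368, 210 and 195 CPM in SAL. Each pair was above 0 by 0.11 to 0.22, and the log2 fold change of 0.17 (SE 0.09) was not called (adjusted p = 0.219). H3F3A (chromosome 1, 226249552 to 226259720, plus strand, GRCh37) had 69 to 170 counts per library and a log2 fold change of -0.21 (SE 0.17, adjusted p = 0.424).

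The low counts of H3F3A are uncertain. The authors' counting dropped reads that mapped to more than 1 place, and of the 1001 windows of 70 bases in its canonical transcript, 918 (91.7%) have an exact copy elsewhere in GRCh37, among others in the processed pseudogenes H3F3AP4 and H3F3AP6. The corresponding share was 6.03% for H3F3B, 4.94% for H2AFV, 2.26% for H2AFZ and 0 for the other 5 genes. H3F3AP4 itself had 586 to 817 counts per library, more than H3F3A in each of the 6 libraries, and a log2 fold change of -0.04.

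**Figure D2:**
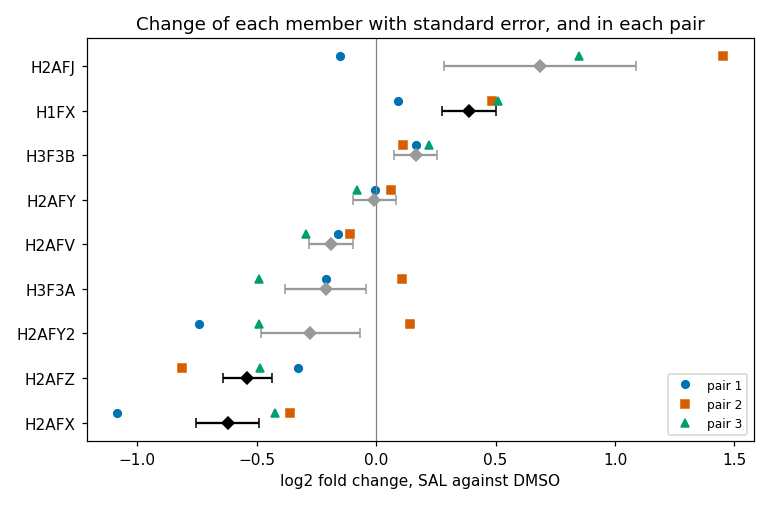
Log2 fold change of SAL against DMSO (x axis) for each gene, as diamonds with the standard error (black where called, grey where not), with the change in each of the 3 pairs as coloured symbols above. The pairs of H2AFZ lie between -0.81 and -0.33, whereas those of H2AFJ run from -0.15 to 1.45.

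Between genes, levels were compared per kilobase of canonical transcript. In DMSO, H2AFZ had the highest level with 336 ± 63.5 CPM per kilobase (SD, n = 3). H2AFY (148 ± 58.6), H2AFJ (134 ± 123), H2AFX (110 ± 25.6) and H3F3B (85.0 ± 31.8) followed, and each of the first 3 of these exceeded the next by less than its own SD. H2AFV (42.8 ± 8.04), H1FX (28.2 ± 20.0) and H3F3A (14.5 ± 5.45) were lower, and H2AFY2 was lowest with 5.80 ± 3.21. The full transcript length was used for H3F3A, although 91.7% of its windows have an exact copy elsewhere. Multi-mapped reads were not counted, so the place of H3F3A in this order is uncertain. With all annotated exons as the length, H2AFZ stayed first at 128 CPM per kilobase and H2AFY2 last at 0.747, while H2AFY went from rank 2 to rank 7, so the middle of the order depends on the transcript that is taken.

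The HIST clusters were the comparison for these genes. Of 75 HIST symbols, 47 passed the filter on low counts. By edgeR 17 of these (36.2%) were down-regulated and 0 up-regulated (1 at an unadjusted p under 0.05). Of all genes tested, 9.37% were down-regulated and 11.5% up-regulated. DESeq2, run without this filter, called 18 of the 62 HIST symbols with counts down-regulated and 0 up-regulated. DESeq2 may leave symbols with few counts without an adjusted p, and its share of all genes called was not computed. The 47 genes had a median of -0.57 on the log2 scale, beside -0.0011 over all genes. Of the 47 genes 40 were below 0, beside 8443 of all 16835 genes. This median was -0.24 without replicate 1 and -0.81 without replicate 2. Calls by edgeR were spread over the core histones, with 4 of 13 H2A genes, 7 of 16 H2B, 4 of 7 H3 and 2 of 8 H4. Of the 3 linker histone genes that passed the filter, 0 were called (1 lower at an unadjusted p under 0.05). DESeq2 called 1 of the 6 linker histone symbols with counts lower. HIST1H3A fell by 1.01 on the log2 scale, HIST1H4A by 1.28, HIST1H4B by 0.95, HIST1H2AB by 0.96 and HIST1H2BC by 0.63, each in all 3 pairs. HIST reads fell in replicate 1 above all, where their share of reads was also highest.

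In each class the HIST gene with the highest mean CPM over all 6 libraries was described by library. HIST1H4C was at 1185, 67.3 and 59.3 CPM in DMSO and at 379, 62.6 and 34.1 CPM in SAL. HIST1H3B was at 635, 57.4 and 35.7 CPM in DMSO and at 231, 37.9 and 23.5 CPM in SAL. HIST1H2AG was at 671, 77.4 and 52.6 CPM in DMSO and at 282, 68.6 and 46.4 CPM in SAL (log2 fold change -0.57, adjusted p = 0.239). HIST1H2BC was at 633, 198 and 160 CPM in DMSO and at 369, 141 and 104 CPM in SAL. HIST1H3B and HIST1H2BC were called while HIST1H4C, HIST1H2AG and HIST1H1C were not. HIST1H1C, a linker histone gene, was at 698, 143 and 83.4 CPM in DMSO and at 496, 243 and 108 CPM in SAL, lower in replicate 1 and higher in replicates 2 and 3. In DMSO alone HIST1H1B was above HIST1H1C, with means of 318 and 308 CPM, and HIST1H1B was lower in SAL in replicates 1 and 3 (log2 fold change -0.59, adjusted p = 0.283). Likewise HIST1H2BD (338 CPM) was above HIST1H2BC (330.3 CPM) in DMSO, and both were called lower (HIST1H1B and HIST1H2BD were named after their values were seen). Replicate 1 was the highest library of its group by far for these genes, unlike for H1FX, where it was the lowest. Without replicate 1, 13 of 45 HIST genes tested were called lower, HIST1H4C among them (-0.43, adjusted p = 0.00280), and 8 were called higher in SAL. HIST1H1B was also among the 13 (-0.29, adjusted p = 0.0275), and HIST1H1C was among the 8 (0.58, adjusted p = 9.20e-07). The share of all genes called without replicate 1 was not computed, so these counts cannot be set beside it. Of the 8, the one with the smallest adjusted p, named after its values were seen, was HIST2H2BE, whose long transcript is shown above (log2 fold change 1.34 without replicate 1, and 0.91 with adjusted p = 0.183 in all pairs).

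Within the H2A and H3 classes, the replacement genes' part of the class's reads was computed per library, as a description. In the H3 class it was 18.0%, 54.5% and 61.3% in DMSO and 39.5%, 62.0% and 72.3% in SAL, higher in each pair, by 13.4 percentage points on average (SD 7.32, n = 3). Per kilobase of canonical transcript the difference was 7.30 points, from a mean of 16.2% in DMSO. In the H2A class the share was 22.6%, 71.1% and 77.6% in DMSO and 34.6%, 67.8% and 75.8% in SAL. There replicate 1 was higher in SAL and replicates 2 and 3 were lower, with differences of -3.36 and -1.81 points, and the mean difference was 2.27 points (SD 8.44) in all pairs and -2.59 without replicate 1. Per kilobase it was 1.03 points. The shares cover only reads that mapped to 1 place: HIST2H3A, HIST2H3C and HIST2H2AA4, whose windows all have exact copies elsewhere, were at 0 counts in every library (also named after their values were seen), and H3F3A is mostly copied, as given above.

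**Figure D3:**
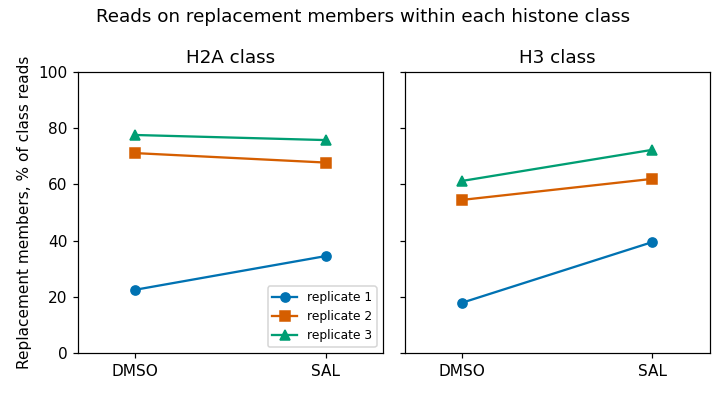
Reads on replacement genes as a percent of the counted reads of the H2A and H3 classes (y axis, 0 to 100), by library, with lines joining replicate numbers. The H3 lines all rise from DMSO to SAL, the H2A lines of replicates 2 and 3 fall, and replicate 1 lies lowest in both classes.

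Genes that place, exchange or process histones were described from lists of general knowledge. Of 43 such genes, edgeR called 12 down-regulated and 0 up-regulated (2 at an unadjusted p under 0.05). Of all genes tested, 9.37% were down-regulated and 11.5% up-regulated. DESeq2 called 6 down-regulated and 0 up-regulated, and without replicate 3 edgeR called 3 down-regulated. The share of all genes called with DESeq2 or without replicate 3 was not computed. Of the 7 H3.3 deposition factors, among them HIRA, DAXX and ATRX, 0 were called by edgeR (1 at an unadjusted p under 0.05) or by DESeq2, and their median was 0.08. Of the 13 H2A.Z exchange and removal factors 2 (15.4%) were down-regulated, beside 9.37% of all genes tested. These were ANP32E, a chaperone that removes H2A.Z (log2 fold change -0.72, adjusted p = 5.58e-05), and YEATS4, a subunit shared by the exchange complexes (-0.34, adjusted p = 0.0289).

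Of 6 replication-coupled and centromeric chaperones 4 were down-regulated, beside 9.37% of all genes tested. These 4 were ASF1B (-0.91), CHAF1B (-0.56), CHAF1A (-0.47) and HJURP (-0.41). CHAF1A and CHAF1B are subunits of the chromatin assembly factor that follows the replication fork, and HJURP is the chaperone of the centromeric H3 variant. That variant, CENPA, was itself at 59.2, 25.7 and 25.8 CPM in DMSO and at 28.6, 11.2 and 12.8 CPM in SAL (log2 fold change -1.08, adjusted p = 1.81e-05). Of the 6 general chaperones NAP1L1 (-1.21), SET (-0.43) and SSRP1 (-0.29) were down-regulated. Of the 11 factors of replication-dependent histone mRNA, ERI1 (-0.48), NPAT (-0.39) and CPSF3 (-0.31) were down-regulated, and SLBP, which binds the stem-loop, had -0.22 and was not called. Of the 10 further replacement variants listed, CENPA included, the only other one with enough counts for testing was H3F3C (0.59, adjusted p = 0.161), and the other 8, most of them known from germ cells, had at most 1 count in a library.

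The 10 proliferation markers, such as MKI67, TOP2A and PCNA, were all down-regulated, with a median of -0.72. Their summed level was 1375 to 2496 CPM in DMSO and 896 to 1623 CPM in SAL. The part of fewer cycling cells in the lower H2AFZ, H2AFX and HIST levels was not tested.

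**Figure D4:**
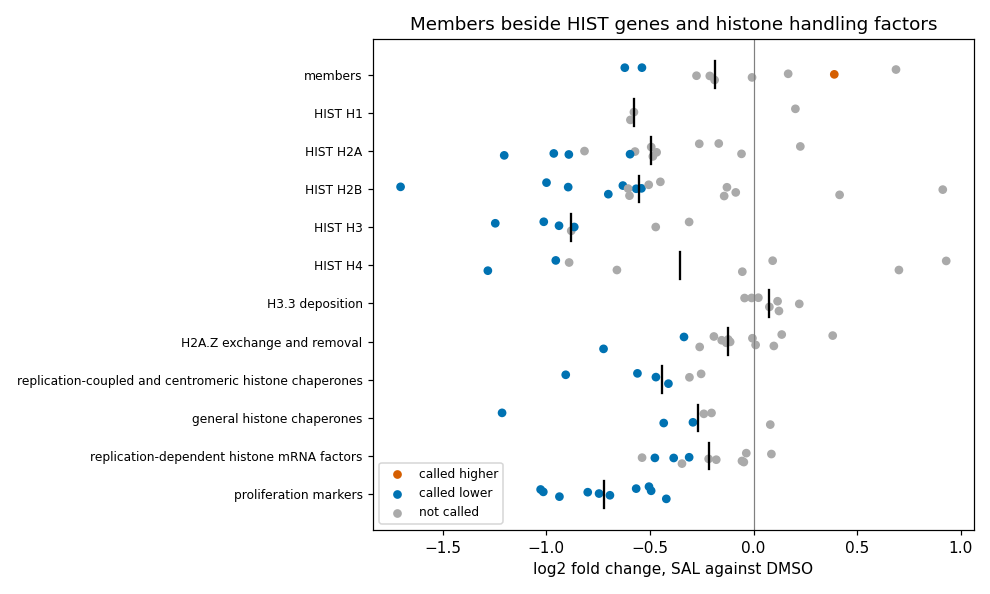
Log2 fold change of SAL against DMSO (x axis) for every tested gene of each group (rows), 1 point a gene, orange where called higher, blue where called lower and grey where not called, with a black bar at the median and vertical scatter for legibility only. The replacement genes spread from -0.62 to 0.69 around 0, the HIST classes lie mostly below 0, the H3.3 deposition factors lie near 0 and all 10 proliferation markers are blue.

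**Figure D5:**
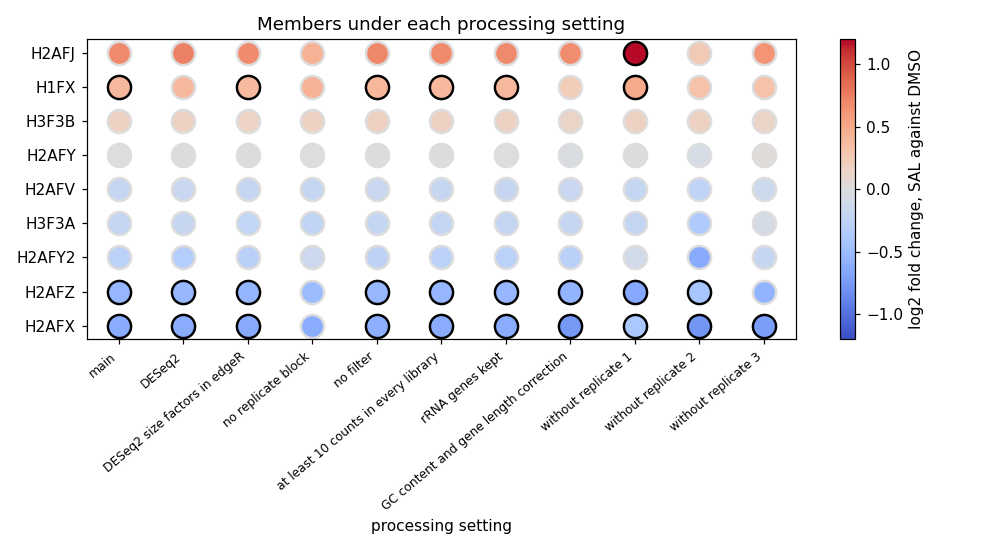
Log2 fold change of each replacement gene (colour) under each processing setting (columns), with a black outline where the adjusted p was under 0.05. H2AFX is outlined in 10 of 11 settings, H2AFZ in 9, H1FX in 6 and H2AFJ in 1, and none is outlined without the replicate block.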

How the data were processed

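RNA was sequenced from 6 C4-2 libraries (3 DMSO, 3 SAL). The authors trimmed the first 4 nucleotides, mapped read 1 to hg19 with TopHat2 2.1.0, and counted reads per gene with HTSeq 0.11.2 and gencode v19, without strand and without multi-mapped reads. The deposited values are these raw counts, not normalized, and htseq-count's tallies stayed out of library sizes.

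After removal of 523 rRNA symbols, counts were filtered with filterByExpr, scaled by TMM and tested with the quasi-likelihood test of edgeR 4.0.16 (robust) in R 4.3.3, with the replicate number as a block, as in the study's paired test, and Benjamini-Hochberg adjustment over 16835 genes. The standard error is |log2 fold change| over the square root of F. Changes per pair used log2 CPM with a prior count of 2. Deviations of same-numbered libraries from their group means correlated (0.886, 0.856 and 0.739 over genes), so libraries of the same number had properties in common. Where these came from was not tested. The fit was also run on counts simulated from its own model, which does not test the calls in these data.

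The replacement genes and lists were chosen with earlier results of these data known, and 1 gene of the set is not reported here. The named genes were the 9 replacement genes reported, the 5 called HIST genes with the smallest adjusted p and the same direction in all pairs, the HIST gene per class with the highest mean CPM over all libraries, every called gene of the lists, and the luminal markers with the highest and lowest CPM.

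Alternatives were DESeq2 1.42.0 (run without the low-count filter), its size factors in edgeR, no block and no filter. Others were a minimum of 10 counts per library, retained rRNA genes and each replicate left out. Correction for GC content and length (values for 83.2% of tested genes) was used as well. Positions are from GRCh37 (the assembly of hg19) with GENCODE v44 lifted to it, and promoters from RefSeq. Copies were found with BLAST 2.17.0. Depth limits H2AFY2 and H3F3A most, and the counts of H3F3A also lack its multi-mapped reads.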

Additional observations from a re-analysis of the deposited data

How the results depend on the processing

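Of 90 values of the 9 replacement genes under the 10 alternatives, 78 kept their direction and their side of the threshold, 8 lost the call, 1 gained it (H2AFJ without replicate 1) and 3 changed sign. The sign changes were all of H2AFY, whose value lay at 0.0034 with DESeq2, 0.0061 without the filter and from -0.060 to 0.029 when a replicate was left out. The values of H1FX ranged from 0.22 to 0.50 on the log2 scale, of H2AFZ from -0.65 to -0.42 and of H2AFX from -0.78 to -0.39.

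The 1 up-regulated replacement gene, H1FX, became 0 with DESeq2 and 0 with the GC content and gene length correction, and 0 to 2 when a replicate was left out, with the 2 (H2AFJ added) without replicate 1 and 0 without replicate 2 or replicate 3. The 2 down-regulated genes became 1 to 2 when a replicate was left out, with the 1 (H2AFX) without replicate 3. Of the HIST genes, 1 was up-regulated without the filter and 1 with the GC content and gene length correction, against 0 in the reported fit, and 0 to 8 when a replicate was left out, with the 8 without replicate 1. Down-regulated HIST genes numbered 13 to 26 when a replicate was left out, with 13 without replicate 1 or replicate 3 and the 26 without replicate 2. The 12 down-regulated genes of the histone handling lists became 6 with DESeq2 and 3 to 12 when a replicate was left out, with the 3 without replicate 3. Without the replicate block, 0 replacement genes were called higher and 0 lower, 0 HIST genes lower and 0 genes of the lists lower. In that setting 0.125% of all genes were called. For the other alternatives the share of all genes called was not computed, so their counts cannot be set beside it. The cause of these changes was not tested.

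The mean differences in class share kept their sign under each alternative, including shares per kilobase of canonical transcript, which were chosen after the data had been seen and moved the H3 difference from 13.4 to 7.30 points and the H2A difference from 2.27 to 1.03. The exception was the H2A class, at -2.59 points without replicate 1. The ratio tests within gene pairs were chosen then too. With 1 replicate left out a fit has 1 residual degree of freedom, so its small p-values depend on the spread borrowed from other genes.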
